A study of Homo sapiens with 6 samples.

Results

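The 10 genes described here code for secreted factors that stimulate or restrain blood vessel growth, with FLT1 as the single receptor among them. They are the vascular endothelial growth factors VEGFA, VEGFB and VEGFC, the placental growth factor PGF, the receptor FLT1, the angiopoietins ANGPT1 and ANGPT2, the angiopoietin-like gene ANGPTL4, and the thrombospondins THBS1 and THBS2. The genes were listed by name, and every probe set whose only gene symbol in the array annotation was one of the 10 was taken. This gave 31 probe sets of 41091 with a single gene symbol. A probe set is a group of short array oligonucleotides that together give 1 intensity for a transcript, and several probe sets can read the same gene.

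RNA came from U251, an established human glioma line. The PARK2 group (3 arrays) held U251 cells that stably overexpressed PARK2, the gene for the ubiquitin ligase parkin, and the control group (3 arrays) held U251 cells that stably overexpressed GFP. Cells of both groups had been infected with viral particles with polybrene, selected with puromycin and grown in the same serum-containing medium. The labels call the arrays biological replicates but name neither the vector's promoter nor whether a line was 1 clone, 1 infection or several, so p-values measure the spread between these arrays, which may be technical.

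VEGF ligands and PGF bind tyrosine kinase receptors on endothelial cells. VEGFA acts through KDR and FLT1 and is a transcriptional target of hypoxia-inducible factors, and in gliomas tumour cells are a known source of it. Angiopoietins bind the endothelial receptor TEK, where ANGPT1 stabilises vessels and ANGPT2 often opposes it. Thrombospondins are large matrix glycoproteins, and THBS1 restrains angiogenesis through its receptors CD36 and CD47 and can activate latent TGF-beta.

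THBS1 was lower in PARK2 cells on 4 of its 7 probe sets, by log2 fold changes of -0.62 to -1.72, while its brightest probe set did not pass the test and another stood above the control arrays. ANGPT1 was higher on 1 of its 2 tested probe sets, both dim (log2 fold change 0.63), and PGF was lower on the dimmer of its 2 (log2 fold change -0.79). VEGFA lay at 0.39 on its brightest probe set and did not pass (adjusted p = 0.0702). VEGFB, VEGFC, FLT1 and THBS2 did not pass on any tested probe set, and the probe sets of ANGPT2 and ANGPTL4 were too dim to test.

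Values are linear array intensities as deposited, and changes are log2 fold changes, PARK2 over control, of the intensity plus a pseudocount of 16, which understates the change of dim probe sets. Each was tested with limma, a linear model whose variances borrow strength across probe sets, and p-values were adjusted by the Benjamini-Hochberg method over the 26603 probe sets bright enough to test. "Higher" and "lower" are used as results where the adjusted p was under 0.05. Of the 31 probe sets, 19 (of 8 genes) passed the filter on dim values, of which 1 was higher and 5 were lower. Among all tested probe sets 20.4% were called, 9.10% higher and 11.3% lower. The PARK2 and control arrays did not overlap on 9 of the 19, and on 35.1% of all tested probe sets. The median change was 0.07 over the 19 and -0.0060 over all tested probe sets. By the brightest probe set of each gene, 1 of the 8 genes was called, ANGPT1, where 23.7% of 13720 genes were.

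Arrays within a group correlated at 0.984 to 0.988 and arrays of different groups at 0.969 to 0.973 (Pearson's r of log2 values). Array medians ran from 16.2 to 19.3 intensity units in PARK2 and from 16.7 to 18.4 in control arrays. The actin 3' to 5' signal ratio, which rises with RNA degradation, was highest in the replicate 1 array of each group, at 5.66 in PARK2 and 5.31 in control, and ran from 3.53 to 3.93 in the other PARK2 and from 3.83 to 4.48 in the other control arrays. The same ratio of the GAPDH control went the other way, being lowest in the replicate 1 arrays, at 1.02 in PARK2 and 1.04 in control, and 1.04 to 1.06 in the other PARK2 and 1.08 to 1.17 in the other control arrays. Glioma line markers were present, with vimentin (VIM) averaging 8921 ± 523 in PARK2 and 8898 ± 444 in control cells (SD, n = 3 each). All 8 such markers passed the filter, with 1 higher (GFAP, log2 fold change 0.53, adjusted p = 0.0485) and 2 lower (S100B and SLC1A3). The groups overlapped on this GFAP probe set, and the other GFAP probe set stood at -0.59. Of 10 endothelial markers 8 were under the filter, and the summed intensity of the 10 ran from 78.1 to 102 in PARK2 and from 81.9 to 93.7 in control arrays. In whole-culture RNA, fewer cells of a type and less RNA per cell cannot be told apart.

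VEGFA, the main vascular growth factor of the family, had 4 probe sets, all tested and all with a positive change. The brightest, 210512_s_at, read 1322, 1516 and 1416 in PARK2 arrays 1 to 3, against 1333, 1023 and 924 in control arrays 1 to 3. The groups overlapped through control replicate 1, which was as high as PARK2 replicate 1. The means were 1418 ± 96.8 in PARK2 and 1093 ± 214 in control cells (SD, n = 3 each), a log2 fold change of 0.39 (SE 0.14; limma, adjusted p = 0.0702).

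This VEGFA value sat close to the threshold and its call depended on the processing. In 14 of the 20 alternatives that tested single probe sets it did not pass, with limma's adjusted p up to 0.242. Without control replicate 1 the probe set was higher in PARK2 cells (log2 fold change 0.54, limma's adjusted p = 0.0041), as it was after quantile normalization (0.42, adjusted p = 0.0040), after scaling to a common trimmed mean (0.41, adjusted p = 0.0064) and when each gene was tested by its brightest probe set alone (adjusted p = 0.0307). Within same-numbered arrays the difference was -0.01, 0.56 and 0.61 on the log2 scale for numbers 1, 2 and 3. The arrays numbered 1 were those with the highest actin and the lowest GAPDH 3' to 5' ratio, and the part of RNA quality in this result was not tested. Without both of them, a setting chosen after seeing the data, the change was 0.58 (limma's adjusted p = 5.8e-04). That setting drops the pair with the difference of -0.01, so a larger change followed from the choice and is a description only.

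The second VEGFA probe set, 212171_x_at, read 227, 294 and 277 in PARK2 arrays, against 229, 175 and 205 in control arrays. Control replicate 1 again lay among the PARK2 values (log2 fold change 0.36, SE 0.16; limma, adjusted p = 0.137). The other VEGFA probe sets were dim, between 28.8 and 64.8 in all arrays, and stood at 0.09 and 0.19 (adjusted p = 0.803 and 0.551). The _x_at mark means that some of the oligonucleotides may also read other transcripts. Averaged over its 4 probe sets VEGFA stood at 0.26 (adjusted p = 0.215).

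VEGFB, a ligand of FLT1, read 64.4, 67.1 and 62.8 in PARK2 arrays, against 72.7, 61.4 and 50.3 in control arrays. The PARK2 values lay inside the control range, and the log2 fold change of 0.07 had a 95% interval of -0.31 to 0.45 (limma's adjusted p = 0.847). VEGFC, a ligand best known for lymphatic vessel growth, read 308, 298 and 320 in PARK2 arrays, against 377, 319 and 368 in control arrays. PARK2 replicate 3 and control replicate 2 met at nearly the same value, and the log2 fold change was -0.19 with a 95% interval of -0.50 to 0.12 (adjusted p = 0.432).

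PGF gave different values by probe set. On the brighter one, 215179_x_at, it read 225, 311 and 351 in PARK2 arrays, against 287, 320 and 314 in control arrays, so that the PARK2 arrays surrounded the control ones (log2 fold change -0.07, 95% interval -0.43 to 0.29, limma's adjusted p = 0.833). On the dimmer one, 209652_s_at, it read 11.0, 21.0 and 31.5 in PARK2 arrays, against 49.8, 53.0 and 37.6 in control arrays. All PARK2 values lay below all control values there. The means were 21.2 ± 10.2 in PARK2 and 46.8 ± 8.14 in control cells (SD, n = 3 each), a log2 fold change of -0.79 (SE 0.22; limma, adjusted p = 0.0175). The change was -1.21 with a pseudocount of 1 and -0.38 with 64. The call was lost without PARK2 replicate 1 (adjusted p = 0.0855), control replicate 1 (0.0693) or control replicate 2 (0.0587). In a comparison between probe sets of a gene that was chosen after seeing the data, the changes of the 2 PGF probe sets differed by -0.71 (SE 0.15), for which an exact two-sided permutation test over the arrays gave p = 0.1, the smallest that 3 against 3 arrays allow.

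FLT1, the high-affinity receptor of VEGFA, VEGFB and PGF, was dim on all 6 probe sets. The single tested one, 232809_s_at, read 27.5, 32.1 and 23.6 in PARK2 arrays, against 30.0, 21.8 and 4.47 in control arrays. Only control replicate 3 stood clearly below the others, and the log2 fold change was 0.41 with a 95% interval of -0.14 to 0.95 (limma's adjusted p = 0.318). Without that array the change was 0.06, without control replicate 1 it was 0.65, and it was 0.86 with a pseudocount of 1 and 0.16 with 64. The 5 untested FLT1 probe sets lay between 0.433 and 12.8 in PARK2 and between 0.836 and 21.2 in control arrays.

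**Figure D1:**
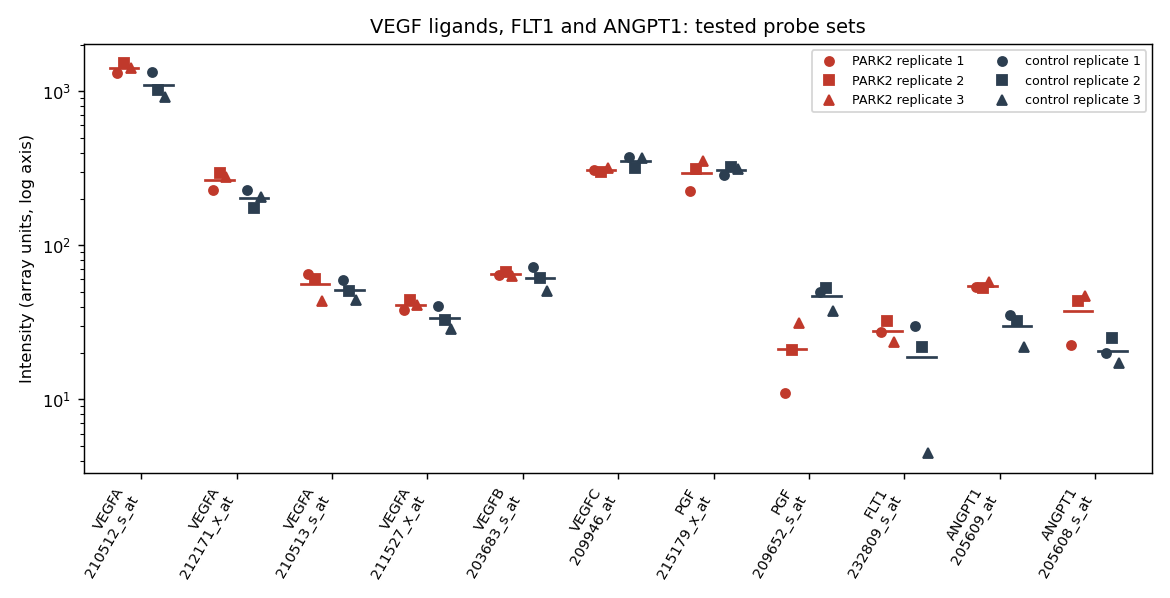
Intensity in array units (log axis) of each tested probe set of VEGFA, VEGFB, VEGFC, PGF, FLT1 and ANGPT1. Points are single arrays, with PARK2 in red on the left and control in dark blue on the right of each pair, marker shapes give the replicate number, and bars are means of 3 arrays. ANGPT1 205609_at (52.7 to 57.4 in PARK2, 22.0 to 35.5 in control) and PGF 209652_s_at are the pairs whose groups do not overlap.

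ANGPT1, the agonist of the receptor TEK, was higher in PARK2 cells on its brightest probe set, which was itself dim. On 205609_at it read 53.8, 52.7 and 57.4 in PARK2 arrays, against 35.5, 32.1 and 22.0 in control arrays. The PARK2 arrays were close to each other and all lay above the control arrays. The means were 54.7 ± 2.45 in PARK2 and 29.9 ± 7.01 in control cells (SD, n = 3 each), a log2 fold change of 0.63 (SE 0.19; limma, adjusted p = 0.0240). The change was 0.34 with a pseudocount of 64. Leaving out any 1 PARK2 array or control replicate 3 ended the call, with adjusted p of 0.0501, 0.0584 and 0.0857 without PARK2 replicates 1, 2 and 3 and 0.0849 without control replicate 3.

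A second ANGPT1 probe set, 205608_s_at, read 22.5, 43.8 and 46.8 in PARK2 arrays, against 19.9, 24.9 and 17.2 in control arrays. PARK2 replicate 1 fell among the control values there (log2 fold change 0.52, SE 0.22; limma, adjusted p = 0.111), and without that array the probe set was higher (0.75, adjusted p = 0.0253). In 16 of the 19 alternatives that tested 205608_s_at it did not pass, with limma's adjusted p up to 0.364. The third, 1552939_at, was under the filter at 5.07 to 9.12 in PARK2 and 0.627 to 5.68 in control arrays. The genes whose brightest probe sets followed the ANGPT1 probe set 205609_at most closely, by the root mean square difference of mean-centred log2 values over the 6 arrays among 13720 genes, were METRNL (0.035), SOX2-OT (0.037) and ALKBH6 (0.037). With 2 groups of 3 arrays this likeness says little beyond a change of similar size, at 0.58, 0.58 and 0.61.

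ANGPT2, the context-dependent antagonist of ANGPT1, had 4 probe sets and all were under the filter. They lay between 0.369 and 20.7 in PARK2 and between 0.213 and 17.1 in control arrays, with no probe set separating the groups. The highest readings were single arrays of 211148_s_at, 20.7 in PARK2 replicate 3 and 17.1 in control replicate 1, while the other 4 arrays of that probe set lay at 1.35 to 2.15. ANGPTL4, a secreted inhibitor of lipoprotein lipase that hypoxia and PPAR factors induce, had 2 probe sets, both under the filter. They lay between 1.46 and 13.4 in PARK2 and between 1.00 and 19.1 in control arrays. On 221009_s_at the replicate 2 arrays were the brightest of both groups, at 13.4 in PARK2 and 19.1 in control. Detection calls were not used here, so these values are given as dim rather than absent.

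Thrombospondin 1 was read by 7 probe sets, and on each of them the PARK2 arrays lay entirely to one side of the control arrays. On 6 they lay below and on 1 above. The groups did not overlap on 35.1% of all tested probe sets, and the 7 probe sets read 1 gene on the same 6 arrays. The brightest, 201110_s_at, read 5314, 6262 and 6981 in PARK2 arrays, against 7794, 7381 and 7535 in control arrays. The means were 6186 ± 836 in PARK2 and 7570 ± 209 in control cells (SD, n = 3 each), a log2 fold change of -0.30 (SE 0.11), which did not pass (limma's adjusted p = 0.0635). It passed with the replicate number as a block (adjusted p = 0.0111), after median centring (0.0259) and when each gene was tested by its brightest probe set (0.0348). In 13 of the 20 alternatives that tested single probe sets it did not pass, with limma's adjusted p up to 0.315.

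Next in brightness were 201109_s_at and 201108_s_at, both lower in PARK2 cells. On 201109_s_at THBS1 read 2268, 3900 and 3948 in PARK2 arrays, against 4327, 5154 and 5694 in control arrays, with PARK2 replicate 1 far below the rest. The log2 fold change was -0.62 (SE 0.17; limma, adjusted p = 0.0148), but -0.36 without PARK2 replicate 1 (adjusted p = 0.0889), and the call was also lost without control replicate 3 (0.0877), after quantile normalization (0.0880) and after trimmed mean scaling (0.0607). On 201108_s_at it read 531, 567 and 608 in PARK2 arrays, against 860, 864 and 1077 in control arrays. These arrays stood well apart, with a log2 fold change of -0.69 (SE 0.14, adjusted p = 0.0018), and the call held under all 20 alternatives that tested this probe set, with adjusted p up to 0.0119.

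The largest change of the 31 probe sets was on THBS1 239336_at. It read 58.6, 31.8 and 55.1 in PARK2 arrays, against 207, 192 and 179 in control arrays. The highest PARK2 array lay far below the lowest control array. The means were 48.5 ± 14.6 in PARK2 and 193 ± 14.2 in control cells (SD, n = 3 each), a log2 fold change of -1.72 (SE 0.19; limma, adjusted p = 3.4e-06), which ran from -1.20 with a pseudocount of 64 to -2.01 with 1. The call held under all 21 alternatives. Compared with the brightest THBS1 probe set its change was larger by -1.42 (SE 0.26). The exact two-sided permutation p of that difference was 0.1, the smallest possible, and 0.183 after adjustment over the 11 such pairs within genes.

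The dim probe set 201107_s_at read 24.2, 42.3 and 31.4 in PARK2 arrays, against 72.4, 72.4 and 56.4 in control arrays, and was lower (log2 fold change -0.78, SE 0.20; limma, adjusted p = 0.0078, and -0.44 with a pseudocount of 64). Probe set 215775_at read 36.7, 39.1 and 22.5 in PARK2 arrays, against 51.2, 56.1 and 42.6 in control arrays, and did not pass (-0.45, SE 0.20, adjusted p = 0.131). Against these, 235086_at read 454, 513 and 548 in PARK2 arrays, above 419, 356 and 407 in control arrays. Its log2 fold change of 0.34 (SE 0.15) did not pass (adjusted p = 0.112), although it did after quantile normalization (0.37, adjusted p = 0.0240), after trimmed mean scaling (0.37, adjusted p = 0.0215) and without control replicate 1 (0.39, adjusted p = 0.0493). In 16 of the 21 alternatives that tested 235086_at it did not pass, with limma's adjusted p up to 0.398. Its change differed from that of the brightest THBS1 probe set by 0.64 (SE 0.06). The exact two-sided permutation p was 0.1, again the smallest possible, and 0.183 after adjustment, so this test could not pass 0.05. Averaged over its 7 probe sets THBS1 was lower in PARK2 cells (-0.60, SE 0.14; limma, adjusted p = 0.0017 over 13720 genes). This average weighs dim and bright probe sets equally, so 239336_at at -1.72 counts as much as the brightest at -0.30. Which part of the transcript each probe set reads was not analysed here.

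**Figure D2:**
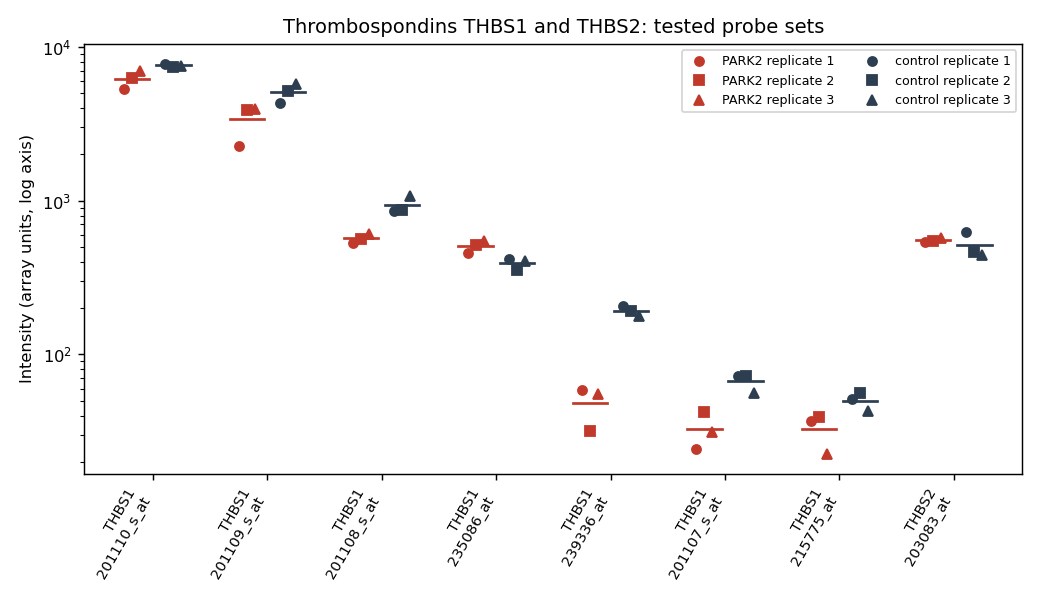
Intensity in array units (log axis) of the 7 THBS1 probe sets and the THBS2 probe set. Points are single arrays, with PARK2 in red on the left and control in dark blue on the right, and bars are means of 3 arrays. The widest gap is on THBS1 239336_at (31.8 to 58.6 in PARK2, 179 to 207 in control), and on 235086_at alone among the THBS1 probe sets the PARK2 arrays are the higher ones.

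THBS2, a related matrix glycoprotein that also restrains angiogenesis, had a single probe set, 203083_at. It read 535, 549 and 572 in PARK2 arrays, against 628, 465 and 442 in control arrays. The PARK2 values lay within the control range, and the log2 fold change of 0.12 had a 95% interval of -0.20 to 0.45 (limma's adjusted p = 0.658). Leaving out 1 array at a time gave 0.03 to 0.28.

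The 250 bases before the annotated gene start of the thrombospondin pair are shown because THBS1 carries most of the calls among these genes and THBS2 carries none. They are from RefSeq (GRCh38.p14), printed 5' to 3' on the gene's strand, with capitals marking ACGTG or GCGTG, core motifs of the hypoxia response element, on either strand. The THBS1 window is chr15:39580829-39581078 (plus strand) and the THBS2 window chr6:169253847-169254096 (minus strand).
THBS1: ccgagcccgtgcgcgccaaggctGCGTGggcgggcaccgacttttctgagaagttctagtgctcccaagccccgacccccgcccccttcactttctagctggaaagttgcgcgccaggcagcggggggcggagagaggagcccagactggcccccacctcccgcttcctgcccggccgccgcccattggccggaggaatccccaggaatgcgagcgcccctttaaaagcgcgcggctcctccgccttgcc
THBS2: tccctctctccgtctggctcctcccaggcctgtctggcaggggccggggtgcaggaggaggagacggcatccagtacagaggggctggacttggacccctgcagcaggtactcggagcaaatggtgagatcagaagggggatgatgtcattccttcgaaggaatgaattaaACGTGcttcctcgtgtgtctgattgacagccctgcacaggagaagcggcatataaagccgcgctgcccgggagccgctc

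THBS1 held 1 GCGTG and no ACGTG, and THBS2 held 1 ACGTG and no GCGTG. Windows on chromosome 8 were left out for the 10 genes, but kept in the share over all windows. The 8 windows that remained cover 7 of the 10 genes (PGF has 2) and none of VEGFA, ANGPT1 and ANGPT2. Of these 8 windows 7 held a motif, where 43.2% of 35116 windows of the same length did (18.5% ACGTG, 32.2% GCGTG). A match is a description of the letters in this window, and no binding was measured.

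**Figure D3:**
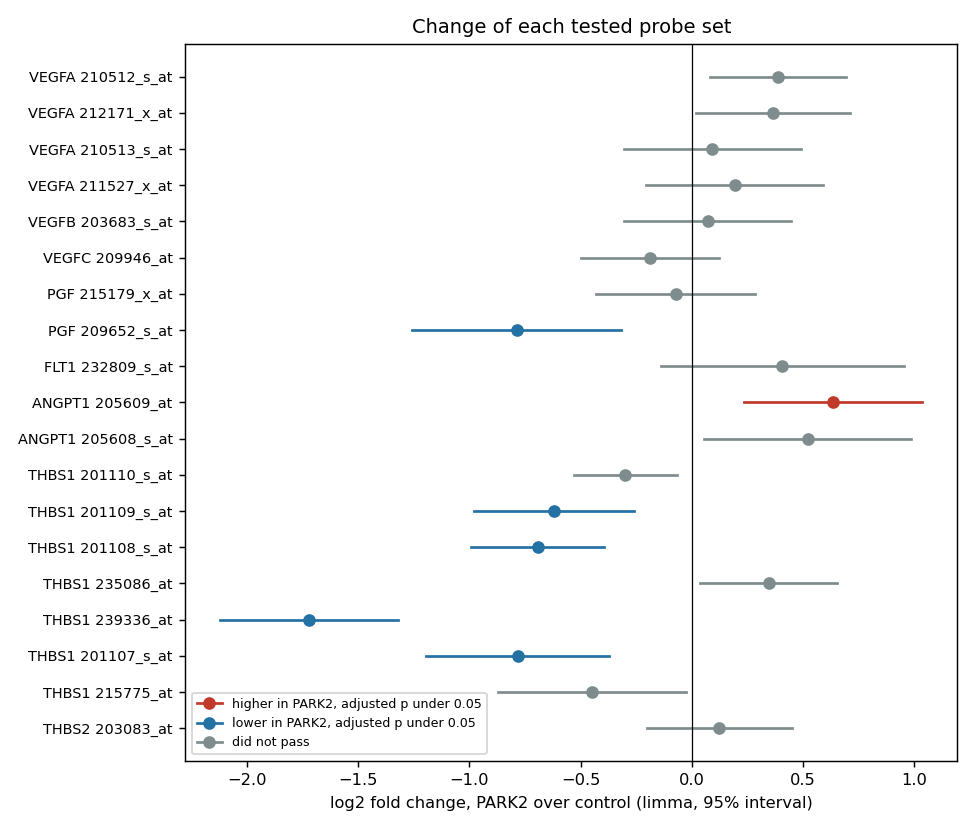
Log2 fold change, PARK2 over control, of each of the 19 tested probe sets, with limma's 95% interval as a line. Red marks the probe set that was higher in PARK2 cells (ANGPT1 205609_at), blue the 5 that were lower (4 of THBS1 and PGF 209652_s_at) and grey the 13 that did not pass.

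Other genes of the same pathways were taken from 8 lists that held 89 different genes, each read by its brightest probe set, and 68 were tested. Of these 11 were higher and 14 lower in PARK2 cells, so that 36.8% of the 68 were called. Among the brightest probe sets of all 13720 genes 23.7% were called, 10.8% higher and 13.0% lower. The lists were chosen with earlier results of these data known, so the larger share is a description and not a test. The median change was 0.02 over the 68 and -0.0026 over all genes.

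Among receptors, NRP2, a co-receptor for VEGF ligands and semaphorins, was lower. It read 976, 1092 and 1152 in PARK2 arrays, against 1975, 1736 and 1452 in control arrays, with no overlap (log2 fold change -0.67, SE 0.14; limma, adjusted p = 0.0021), and 6 of its 11 tested probe sets were lower and 0 higher. NRP1 stood at 0.07 (adjusted p = 0.839) and KDR at 0.08 (0.842), so 1 of the 3 tested receptors was called, where 23.7% of all genes were. FLT4, TEK and TIE1 were under the filter. Of the thrombospondin relatives and receptors, 0 of 3 tested genes passed limma's threshold, also under all alternatives, and 0 of the 3 had an unadjusted p under 0.05. With 23.7% of all genes called, counts out of 3 say little about either list. THBS4 stood at 0.33 (limma, adjusted p = 0.349), CD47, a receptor of THBS1, at 0.08 (0.773) and THBS3 at 0.09 (0.813). The 5 tested probe sets of CD47 ran from -0.48 to 0.08, with 0 higher and 0 lower. CD36, also a receptor of THBS1, and COMP were under the filter. Of the other VEGF and angiopoietin family ligands only ANGPT4 was tested, at 0.26 (adjusted p = 0.564).

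Of 18 tested secreted promoters of angiogenesis 4 were higher and 1 lower, where 10.8% of all genes were higher and 13.0% lower. The vasodilator peptide gene ADM read 1460, 1508 and 1546 in PARK2 arrays, against 537, 499 and 428 in control arrays, a log2 fold change of 1.60 (SE 0.14; limma, adjusted p = 1.4e-07). The heparin-binding factor MDK (0.93, adjusted p = 0.0021) and the fibroblast growth factor FGF2 (0.77, adjusted p = 0.0015) were also higher. FGF2 was higher on 1 of its 2 tested probe sets. NRG1, an ERBB receptor ligand, was lower (-1.68, adjusted p = 1.0e-06), on 1 of its 5. PDGFA, the remaining higher gene, was higher on 1 of its 2. APLN did not pass on its brightest probe set but was lower on the other of its 2 (-1.01), which is outside the count. The median of the list was 0.04, and over the alternatives 2 to 5 genes were higher and 0 to 2 lower.

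Of 12 tested genes in the inhibitor list 4 were higher and 1 lower, where 10.8% of all genes were higher and 13.0% lower. The median of the list was 0.17, and over the alternatives 2 to 5 were higher and 0 to 1 lower. ADAMTS1, a secreted protease, read 1276, 1498 and 1406 in PARK2 arrays, against 79.0, 73.5 and 59.6 in control arrays (log2 fold change 4.03, SE 0.15; limma, adjusted p = 4.1e-12). The basement membrane collagen genes COL4A1 (0.96, adjusted p = 5.9e-05) and COL4A2 (0.57, adjusted p = 0.0122), whose fragments restrain angiogenesis, were higher. COL4A2 was higher on 1 of its 2 tested probe sets. COL18A1, the precursor gene of endostatin, was lower (-0.68, adjusted p = 0.0097), on both of its probe sets. 

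Hypoxia is a known inducer of VEGFA and ANGPTL4. Of 17 tested hypoxia target genes 2 were higher and 9 lower, where 10.8% of all genes were higher and 13.0% lower. The median of the list was -0.34, and over the alternatives 0 to 2 were higher and 5 to 9 lower. The list was chosen with earlier results known and leaves out VEGFA, ANGPTL4 and ADM. Of these, ADM was higher (1.60) and is counted with the promoters. The stress-response gene DDIT4 read 548, 697 and 685 in PARK2 arrays, against 1975, 1907 and 1561 in control arrays (log2 fold change -1.47, SE 0.14; limma, adjusted p = 7.4e-07). PFKFB4, a regulator of glycolysis, and NDRG1 were lower (-1.21 and -1.18), as was the collagen prolyl hydroxylase subunit P4HA1 (-0.82). Of 9 tested factor subunits and regulators 1 was higher, the hydroxylase EGLN3 (0.57, adjusted p = 0.0290), which is also 1 of the 2 higher target genes. EGLN3 was higher on 1 of its 2 tested probe sets. This list had 0 higher genes without the filter, without the trend, without _s_at and _x_at probe sets, at an adjusted p of 0.01, at a minimum of 1.5-fold, and without PARK2 replicate 2, PARK2 replicate 3 or control replicate 2. HIF1A and EPAS1 stood at 0.09 and 0.17 (adjusted p = 0.565 and 0.378). Of 6 tested PPAR target genes 1 was higher, PDK4 (0.70, adjusted p = 0.0277), and 2 were lower, the fatty acid carrier FABP4 (-2.30, adjusted p = 1.6e-08) and ACADVL (-0.64, adjusted p = 0.0201). PDK4 was dim, at 19.1, 19.8 and 24.6 in PARK2 arrays, against 9.88, 6.07 and 4.73 in control arrays, whose mean of 6.89 lies below the lowest mean tested (9.96). The list had 0 higher genes with a filter at the 60th percentile, at an adjusted p of 0.01, and without any 1 PARK2 array, control replicate 2 or control replicate 3. It had 1 lower gene without the filter, without the trend, at an adjusted p of 0.01, and without PARK2 replicate 1, control replicate 1 or control replicate 2.

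**Figure D4:**
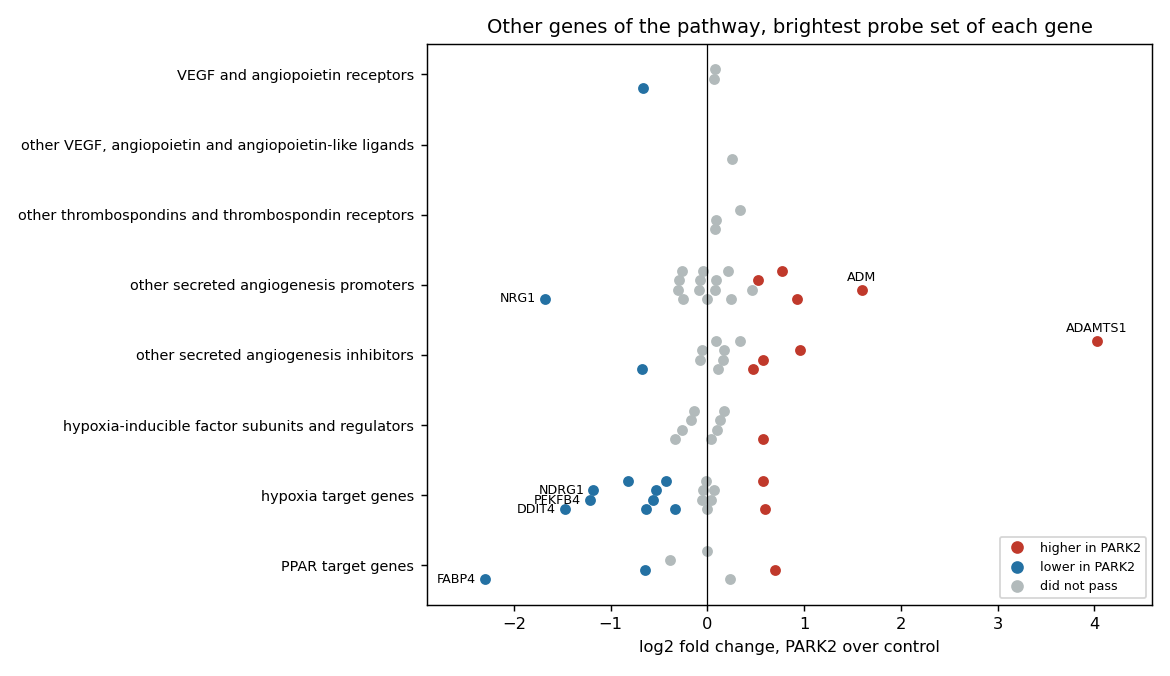
Log2 fold change, PARK2 over control, of the tested genes of 8 lists, 1 point a gene on its brightest probe set, with vertical position within a list only separating points. Red and blue mark genes higher and lower in PARK2 cells at an adjusted p under 0.05, grey those that did not pass, and names are given beyond a change of 1. The hypoxia targets hold 9 blue and 2 red points, and the inhibitor list has ADAMTS1 at 4.03.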

How the data were processed

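RNA of 6 U251 samples was measured on Affymetrix arrays, 3 PARK2 and 3 control. The authors deposited a linear intensity for each probe set on each array. Per the submitters' processing notes the tools were GCOS and MAS5, and their versions and the scaling target are not given in the sources used here.

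Gene names came from GEO's platform annotation. Of 54675 probe sets 62 were controls, 41091 had 1 gene symbol, 1801 several and 11721 none. RefSeq gene numbers (GRCh38.p14) updated 0 symbols and were lacking for 54 probe sets. Intensities became log2(value + 16) without further normalization. Probe sets with 1 symbol and a mean log2 value at or above the 40th percentile of non-control probe sets were tested (26603, lowest mean intensity 9.96). Limma 3.58.1 in R 4.3.3 was run with an intensity trend (13.7 prior against 4 residual degrees of freedom) at an adjusted p of 0.05.

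Every probe set of the 10 genes was described. List genes were named where they were up to 4 largest changes past the threshold, or, where none passed, the 2 smallest p-values. NRP1, KDR, THBS3, HIF1A, EPAS1, PDGFA and APLN were named after their values were seen. Genes closest in pattern were sought for the brightest member probe sets past the threshold. The members and lists were chosen with earlier results of these data known. The check of the targeted gene is not reported here.

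Deviations from the group means were correlated between same-numbered arrays (r across probe sets 0.401, 0.179 and 0.130 for numbers 1, 2 and 3). Differently numbered arrays gave -0.284 to 0.162, so only number 1 stood out. All same-numbered pairs were above 0.1, and on that ground the replicate number was also fitted as a block. Some differently numbered pairs were above 0.1 too, so this ground is weak for numbers 2 and 3. The pairing rests on this correlation, since the labels give only the numbers. On simulated arrays for PARK2 against control with 26603 probe sets and 200 changed, the test recovered 22.4% of changes of 1.5-fold, 82.1% of 2-fold and 100% of 4-fold, with 18 unchanged ones called. The simulated arrays were drawn independently and held a smaller share of changes than the 20.4% called here, so recovery in the data can differ. Precision is limited by having 3 arrays a group.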

Additional observations from a re-analysis of the deposited data

How the results depend on the processing

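No called value among the probe sets of the 10 genes changed sign under any alternative. Of the 6 calls, those of THBS1 239336_at, 201108_s_at and 201107_s_at held under all alternatives that tested them, and those of THBS1 201109_s_at, ANGPT1 205609_at and PGF 209652_s_at were lost under 8, 6 and 6. The count of higher probe sets of the 10 genes (1) was 0 without the filter on dim probe sets or at an adjusted p of 0.01, 2 with a robust prior or with 1 probe set per gene, 4 after quantile normalization or trimmed mean scaling, and 5 with array weights, whose fit stopped before it converged. The count of lower ones (5) was 3 without the filter or at an adjusted p of 0.01, and 1 with 1 probe set per gene, with the mean of the probe sets or without _s_at and _x_at probe sets, settings that test only 8, 8 and 6 values. Over all probe sets, 2422 higher became 3704 after quantile normalization, 3735 after trimmed mean scaling, 5905 with array weights, 1461 with the mean of a gene's probe sets and 1433 at an adjusted p of 0.01. The 2994 lower ones became 5352 with array weights, 1884 with the mean of probe sets, 1830 without _s_at and _x_at probe sets and 1733 at an adjusted p of 0.01. The 25 calls among list genes became 13 without _s_at and _x_at probe sets and 16 at an adjusted p of 0.01.

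Leaving out 1 array at a time gave 0 to 3 higher and 3 to 5 lower probe sets of the 10 genes, 1529 to 3635 higher and 2166 to 3175 lower of all, and 17 to 24 calls among list genes. The higher counts of 3 and 3635 are those without control replicate 1, the 1529 is that without PARK2 replicate 3, and the 3 lower is that without PARK2 replicate 1. Without both replicate 1 arrays, a setting chosen after seeing the data, 5 probe sets of the 10 genes and 4523 of all were higher. With the replicate block 1 probe set of the 10 genes was higher and 6 were lower, the added one being THBS1 201110_s_at, and the block changed no other call among the 19. Scalings moved the median of all probe sets by at most 0.02 on the log2 scale. Where a count moved and the construction of the setting does not show why, the cause was not tested.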
